A study of Mus musculus with 7 samples.

Results

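The Hippo pathway genes of the mouse ovary were taken as a list of 10 named members, Stk3, Stk4, Sav1, Lats1, Lats2, Yap1, Wwtr1, Tead1, Ctgf and Cyr61. All 10 were found by symbol among the 55487 Ensembl genes counted in each library, with Ctgf and Cyr61 carried under their newer symbols Ccn2 and Ccn1 in the GENCODE M21 annotation of mm10. The list was fixed by gene name with no threshold on a measured value, although earlier results of these data were known when it was made. Poly(A) RNA was sequenced from whole ovaries of C57BL/6J females taken at diestrus on postnatal day 60. The 3 CNTR libraries came from offspring of dams that had been given PBS daily, starting at E16.5 and ending at E18.5. The 4 PAMH F3 libraries came from the generation numbered 3 of a lineage in which F0 dams received recombinant human AMH (anti-Müllerian hormone, made by growing follicles) at 0.12 mg/kg per day over the same days, with no AMH given to the later dams. The sample labels give these injections as subcutaneous and the study's methods as intraperitoneal. The CNTR females were direct offspring of injected dams, so ancestral AMH and the number of generations since injection cannot be told apart here. Nothing in the labels says whether the ovaries of several animals went into 1 library, and the p-values below therefore measure the spread between these libraries.

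The Hippo pathway is a kinase cascade that restrains tissue growth. MST1 and MST2 (Stk4 and Stk3), held by the scaffold SAV1, activate LATS1 and LATS2, which phosphorylate the coactivators YAP (Yap1) and TAZ (Wwtr1) and keep them in the cytoplasm. Unphosphorylated YAP and TAZ enter the nucleus, bind TEAD transcription factors and switch on targets such as Ctgf and Cyr61, which encode secreted matrix proteins of the CCN family. In the ovary the pathway is known for its part in follicle growth, where loss of its restraint by cutting or stretching the tissue goes with follicle activation. Most of this control acts on protein phosphorylation and location, which transcript counts do not measure.

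TEAD proteins bind the letters CATTCC, read as GGAATG on the other strand, and the promoter sequences show where these letters lie near the members. RefSeq promoter windows (GRCm38.p6, the same assembly as mm10) were at hand for 7 of the 10 members. The 250 bases before the transcription start held the motif on either strand in 4 of these 7, Cyr61, Yap1, Wwtr1 and Sav1, and in none of the windows of Stk4, Lats1 and Lats2. By comparison the motif was present in 12.6% of all 32851 windows of this length, and in at least 1 window of 14.4% of 27025 genes. Among the gene lists described below, it was present in 38.5% of 13 further YAP and TAZ target genes with a window. The share was 23.8% of 42 further pathway genes, and the 1 other CCN gene with a window had none. The upstream bases are printed 5′ to 3′ on the strand of the gene, with the motif in capitals and without bases that M21 places in an exon. They are shown because Cyr61 is the classical target, Yap1 and Wwtr1 are the coactivators themselves, and Sav1 had the lowest p of the members.
Cyr61 (chr3:145649986-145650235, minus strand): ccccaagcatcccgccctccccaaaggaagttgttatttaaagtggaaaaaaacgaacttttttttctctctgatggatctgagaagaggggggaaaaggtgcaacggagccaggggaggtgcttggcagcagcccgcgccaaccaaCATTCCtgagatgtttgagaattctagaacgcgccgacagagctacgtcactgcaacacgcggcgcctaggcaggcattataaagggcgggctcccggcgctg
Yap1 (chr9:8004597-8004829, minus strand): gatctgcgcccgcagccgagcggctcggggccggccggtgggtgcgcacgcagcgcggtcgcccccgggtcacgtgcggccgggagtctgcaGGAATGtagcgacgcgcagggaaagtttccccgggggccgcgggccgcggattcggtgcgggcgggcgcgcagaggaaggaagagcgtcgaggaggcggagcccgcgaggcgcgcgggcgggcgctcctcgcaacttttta
Wwtr1 (chr3:57575911-57576160, minus strand): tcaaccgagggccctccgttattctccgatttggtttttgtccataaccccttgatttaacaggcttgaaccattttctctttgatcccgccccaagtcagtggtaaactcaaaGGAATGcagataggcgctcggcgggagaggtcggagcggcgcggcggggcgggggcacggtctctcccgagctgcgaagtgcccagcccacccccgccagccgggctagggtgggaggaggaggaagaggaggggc
Sav1 (chr12:69987003-69987252, minus strand): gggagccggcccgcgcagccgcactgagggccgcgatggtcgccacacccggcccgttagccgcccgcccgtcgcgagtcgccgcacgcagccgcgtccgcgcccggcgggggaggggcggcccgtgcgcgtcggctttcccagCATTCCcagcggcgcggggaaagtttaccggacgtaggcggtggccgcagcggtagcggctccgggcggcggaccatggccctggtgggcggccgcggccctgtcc

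The motif begins 103 bases before the start of Cyr61, 106 before that of Sav1, 141 before that of Yap1 and 136 before that of Wwtr1. A further RefSeq window of Wwtr1, not printed, holds the same motif 170 bases before its start. In Cyr61 and Sav1 it reads CATTCC on the gene's strand and in Yap1 and Wwtr1 GGAATG. The upstream windows also differ in composition, with 79.2% G and C in Sav1, 76.4% in Yap1 and 54.8% in Cyr61. A match of 6 letters describes the sequence and not binding by TEAD.

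Gene counts per library ran from 32158174 to 35485021, and every member was well covered, with 692 to 7446 counts. CPM below means counts scaled to library size by edgeR after TMM normalization. The group difference was tested by edgeR's quasi-likelihood F test with 2 surrogate variables, covariates estimated from the counts to absorb unlabelled variation, on the 18779 genes with enough counts, and p-values were adjusted over all of them by the Benjamini-Hochberg method. All 10 members passed the filter on low counts. At an adjusted p of at most 0.05 edgeR called 0 of the members and 0.0% of all genes, and DESeq2, given those surrogate variables too, called 0 members and 0.58% of its genes (101). With an unadjusted p under 0.05 stood 1 of the 10 members, Sav1, beside 7.63% of all genes (1432). In DESeq2 it was again 1 member, beside 5.66% of the same genes (1062). Without surrogate variables 0 members had such a p, beside 3.89% of all genes (730). In none of the members were the CPM values of the groups free of overlap, which was the case for 4.25% of all genes. The median log2 fold change was 0.029 over the members and 0.0067 over all genes, and the median size of the change was 0.038 over the members and 0.097 over all genes. Without surrogate variables these sizes were 0.068 and 0.106. The genes tested include some with counts far below those of any member, so the sizes are not compared at like levels.

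**Figure D1:**
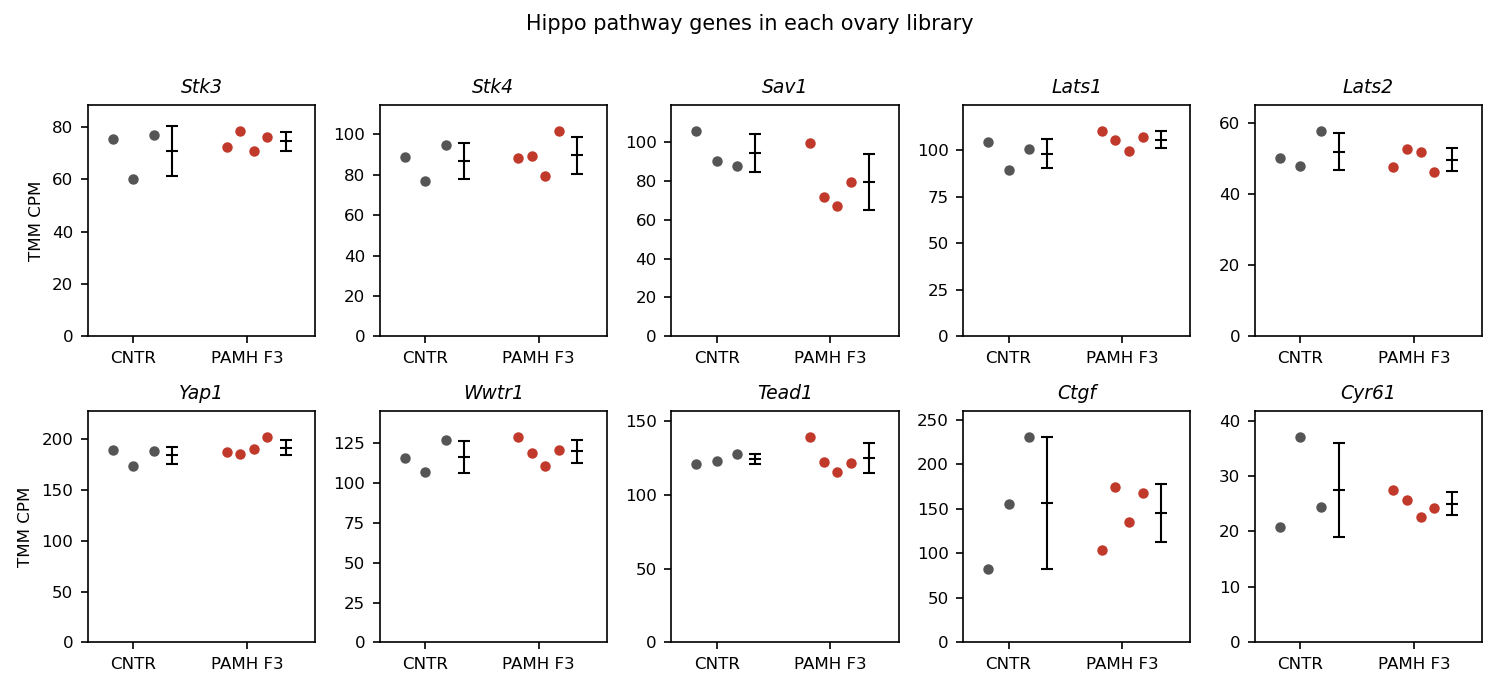
TMM CPM of the 10 Hippo pathway genes in each library, with CNTR libraries in grey (n = 3) and PAMH F3 libraries in red (n = 4) in order of replicate number, and the mean with SD in black beside them. The groups overlap in all 10 panels, with the widest spread in Ctgf (82.4 to 230 CPM).

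Among the upstream kinases, the transcripts of Stk3 and Stk4 lay at like levels in both groups. Stk3 (MST2, chr15:34875496-35178921, minus strand) measured 75.3, 59.9 and 77.0 CPM in CNTR and 72.3, 78.4, 70.8 and 76.2 CPM in PAMH F3. CNTR replicate 2 was the lowest library and the other 6 lay close together. The fold of PAMH F3 over CNTR was 1.02, with a 95% confidence interval from 0.907 to 1.16 (edgeR adjusted p = 0.946). Stk4 (MST1, chr2:164070322-164155524, plus strand) measured 88.7, 77.2 and 94.7 CPM in CNTR and 88.2, 89.4, 79.6 and 102 CPM in PAMH F3. The groups overlapped over nearly their whole range, and the fold was 1.01 with an interval from 0.919 to 1.11 (edgeR adjusted p = 0.979). A rise of more than 1.16-fold lies outside both intervals of this fit with surrogate variables. In log2 units their upper limits were 0.21 for Stk3 and 0.15 for Stk4. Without surrogate variables the upper limits were higher, at 0.30 for Stk3 and 0.28 for Stk4.

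Sav1 (chr12:69965012-69987002, minus strand), whose product is the scaffold that brings the MST kinases to LATS, was the only member with an unadjusted p under 0.05. It measured 106, 89.9 and 87.6 CPM in CNTR and 99.3, 71.8, 67.0 and 79.5 CPM in PAMH F3. PAMH F3 replicates 2, 3 and 4 lay below all CNTR libraries, whereas PAMH F3 replicate 1 lay above 2 of the 3. The log2 fold change was -0.34 ± 0.12 (SE), a fold of 0.792 with an interval from 0.649 to 0.967, and neither edgeR (adjusted p = 0.613) nor DESeq2 (adjusted p = 0.465) called it. The log2 fold change was -0.25 without surrogate variables and -0.18 without CNTR replicate 1, and in neither of these fits was the unadjusted p under 0.05. Over the 25 alternative fits the change ran from -0.43 to -0.16, with such a p in 12. An exact permutation test on CPM over the 35 divisions of the libraries, two-sided, gave p = 0.200, where 0.0286 is the smallest value possible. Of its exon bases, 25.4% are shared with Atl1 on the opposite strand, a gene with 353 to 436 counts per library, and the strand setting of the counting is not given in the sources used here.

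The LATS kinases sit at the end of the cassette and act on YAP and TAZ directly, and neither differed between the groups beyond the spread of the libraries. Lats1 (chr10:7681214-7716460, plus strand) measured 104, 89.6 and 101 CPM in CNTR and 110, 106, 99.5 and 107 CPM in PAMH F3. The fold was 1.05 with an interval from 0.963 to 1.14 (edgeR adjusted p = 0.802), and 1 PAMH F3 library lay within the CNTR range. Lats2 (chr14:57689662-57758388, minus strand) measured 50.1, 47.9 and 57.9 CPM in CNTR and 47.7, 52.9, 52.1 and 46.2 CPM in PAMH F3. Its fold was 0.968 with an interval from 0.831 to 1.13 (edgeR adjusted p = 0.939), and CNTR replicate 3 was the highest library. Of the Lats2 exon bases, 42.4% are also exons of Gm49361 on the same strand. That gene had 0 counts in every library. HTSeq's union mode sets reads on bases shared by genes of 1 strand aside as ambiguous, which leaves 4016 bases for Lats2 if the counting used the exons of M21.

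Neither coactivator differed between the groups beyond the spread of the libraries, and Yap1 was the steadiest of the members. Yap1 (chr9:7931999-8004596, minus strand) measured 190, 174 and 189 CPM in CNTR and 188, 186, 191 and 202 CPM in PAMH F3. The SD of its log2 CPM over the 7 libraries was 0.064, at percentile 4.55 among the tested genes. The fold was 1.03 with an interval from 0.940 to 1.13 (edgeR adjusted p = 0.895). Wwtr1, which encodes TAZ (chr3:57455649-57575910, minus strand), measured 115, 107 and 127 CPM in CNTR and 129, 119, 111 and 121 CPM in PAMH F3. The SD of its log2 CPM was 0.098, at percentile 18.4. Its fold was 1.02 with an interval from 0.921 to 1.12 (edgeR adjusted p = 0.958). For both coactivators the PAMH F3 libraries lay within or just beyond the CNTR range.

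Tead1 (chr7:112679318-112906807, plus strand), a DNA-binding partner of YAP and TAZ, had group means that were nearly equal. It measured 121, 123 and 128 CPM in CNTR and 139, 123, 115 and 122 CPM in PAMH F3, and PAMH F3 replicate 1 alone lay well above the rest. The fold was 1.00 with an interval from 0.884 to 1.13 (edgeR adjusted p = 0.999). Its paralogs Tead2, Tead3 and Tead4 bind the same letters. Of the summed level of the 4 TEAD genes in CPM per kb of exon, Tead1 held 34.1% to 45.0% and Tead2 42.0% to 51.2% over the 7 libraries. Tead3 held 8.99% to 12.3% and Tead4 2.10% to 3.12%. In CNTR replicate 2 Tead1 had its smallest share and Tead2 and Tead3 their largest. The log2 fold changes were -0.12 ± 0.11 (SE) for Tead2, -0.098 ± 0.098 for Tead3 and -0.31 ± 0.22 for Tead4, with edgeR adjusted p of 0.835, 0.850 and 0.785. Without surrogate variables they were -0.22 for Tead2 and -0.24 for Tead3. Over the 25 alternative fits the change ran from -0.33 to -0.027 for Tead2, from -0.37 to -0.018 for Tead3 and from -0.43 to -0.12 for Tead4. Tead2 and Tead3 had an unadjusted p under 0.05 in 2 of these fits, both without CNTR replicate 1.

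Of the members, the target Ctgf varied most between libraries. Ctgf (chr10:24595442-24598683, plus strand) measured 82.4, 156 and 230 CPM in CNTR and 103, 174, 135 and 167 CPM in PAMH F3. The CNTR libraries alone spanned 2.80-fold and enclosed all 4 PAMH F3 libraries. The SD of its log2 CPM over the 7 libraries was 0.49, at percentile 97.4 among the tested genes. The mean was 156 CPM (SD 74.0, n = 3) for CNTR and 145 CPM (SD 32.6, n = 4) for PAMH F3. The log2 fold change was 0.24 ± 0.16 (SE) with surrogate variables and -0.10 without them, and edgeR called neither (adjusted p = 0.762 and 0.996). A fold between 0.919 and 1.53 lies within the interval of the fit with surrogate variables. Of its exon bases, 23.2% are shared with Gm15270 on the opposite strand, which had 21 to 51 counts.

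Cyr61 (chr3:145646976-145649981, minus strand) measured 20.9, 37.0 and 24.4 CPM in CNTR and 27.5, 25.6, 22.5 and 24.3 CPM in PAMH F3. CNTR replicate 2 stood above the other 6 libraries, and the PAMH F3 libraries lay within the CNTR range. The SD of its log2 CPM was 0.26, at percentile 82.2 among the tested genes, beside 0.24 for Sav1. This spread rests on CNTR replicate 2, and within PAMH F3 Cyr61 spanned 1.22-fold and Sav1 1.48-fold. The fold was 1.02 with an interval from 0.797 to 1.32 (edgeR adjusted p = 0.981), and the log2 fold change was 0.035 with surrogate variables and -0.13 without them. CNTR replicate 2 also held the most immediate early RNA, with a sum of 294 CPM over 8 immediate early genes (Fos, Egr1 and others) beside 150 to 200 CPM in the other libraries. Cyr61 is itself known as an immediate early gene. Between the groups, 3 of the 8 were lower and 1 higher in PAMH F3 with an unadjusted p under 0.05 in edgeR with surrogate variables, and the groups of Fosb and Junb did not overlap. DESeq2 with surrogate variables called Ier2 (adjusted p = 0.0114), which was lower in PAMH F3, whereas edgeR did not (adjusted p = 0.398). The part of the immediate early genes in the values of Cyr61 and of the further target genes below was not tested.

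**Figure D2:**
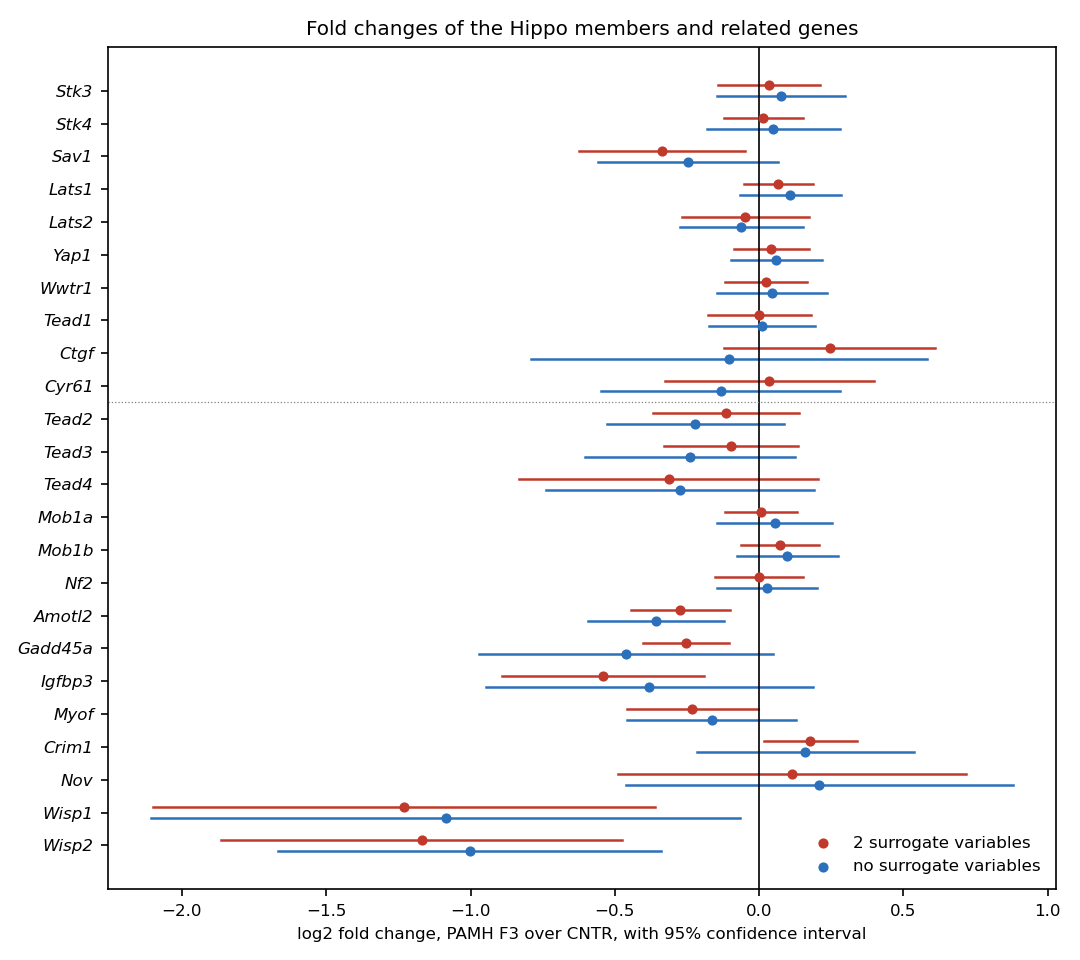
Log2 fold change of PAMH F3 over CNTR with its 95% confidence interval for the 10 members (above the dotted line) and for related genes, from the edgeR fit with 2 surrogate variables (red) and without them (blue). The intervals of 9 members include 0 in both fits, and Ctgf and Cyr61 lie on opposite sides of 0 in the pair of fits.

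Compared between genes, and therefore per kb of exon that the counting can assign under M21, Ctgf had the highest level of the members at 52.4 ± 17.1 CPM per kb (SD, n = 7). It was followed by Wwtr1 at 24.8 ± 1.69 and Yap1 at 20.4 ± 0.899 CPM per kb, and the ranges of these 3 genes over the libraries did not overlap. Sav1, Stk4, Lats1, Cyr61, Lats2 and Stk3 followed with means between 16.3 and 11.9 CPM per kb, and each of them overlapped its neighbours in this order. Tead1 was the lowest on this scale, at 9.18 ± 0.553 CPM per kb. Over all exon bases of Lats2, including those shared with Gm49361, its mean was 7.27 CPM per kb and lay below that of Tead1, so the place of Lats2 depends on the annotation used for counting. The order also takes the counting to be by strand, a setting that is not given. Counting without regard to strand would set aside the 25.4% of Sav1 exon bases shared with Atl1. The level of Sav1 per kb would then be higher, so its place by the mean relative to Yap1 depends on this setting.

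**Figure D3:**
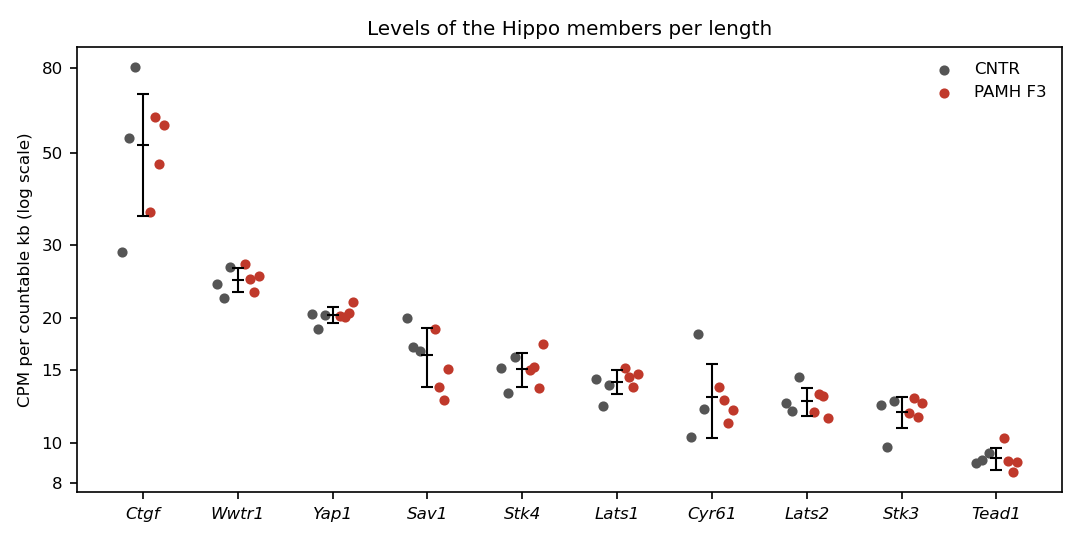
Level of each member in CPM per kb of countable exon on a log axis, ordered by the mean, with 1 point per library (CNTR grey, PAMH F3 red) and the mean with SD over the 7 libraries in black. Ctgf spans 28.8 to 80.5 CPM per kb, and the 6 genes from Sav1 to Stk3 overlap.

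Ratios of paralogs within a library do not depend on the scaling between libraries, and 4 were compared by exact permutation tests (two-sided, 35 divisions) with Benjamini-Hochberg adjustment over the 4. The ratio of Wwtr1 to Yap1 per kb was 1.22 ± 0.0678 (SD, n = 3) in CNTR and 1.21 ± 0.0929 (SD, n = 4) in PAMH F3 (exact p = 0.83, adjusted p = 0.83). Per kb of M21 exon, Wwtr1 thus lay above Yap1 in all 7 libraries, by 1.12-fold to 1.33-fold. In CPM the order was the reverse, with 107 to 129 CPM for Wwtr1 and 174 to 202 CPM for Yap1. The order per kb rests on exon lengths of 4779 bases for Wwtr1 and 9257 bases for Yap1 in M21. Which of their transcript forms these ovaries hold was not tested. The ratio of Lats2 to Lats1 was 0.963 ± 0.0855 in CNTR and 0.857 ± 0.0860 in PAMH F3, with overlapping groups (exact p = 0.200, adjusted p = 0.80). Counting all exon bases of Lats2 lowers this ratio by the same factor in every library. The ratio of Stk3 to Stk4 was 0.779 ± 0.0353 and 0.799 ± 0.0615 (exact p = 0.657, adjusted p = 0.83). The ratio of Cyr61 to Ctgf was 0.282 ± 0.114 and 0.257 ± 0.0813 (exact p = 0.83, adjusted p = 0.83), and it ranged from 0.15 in CNTR replicate 3 to 0.377 in PAMH F3 replicate 1.

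**Figure D4:**
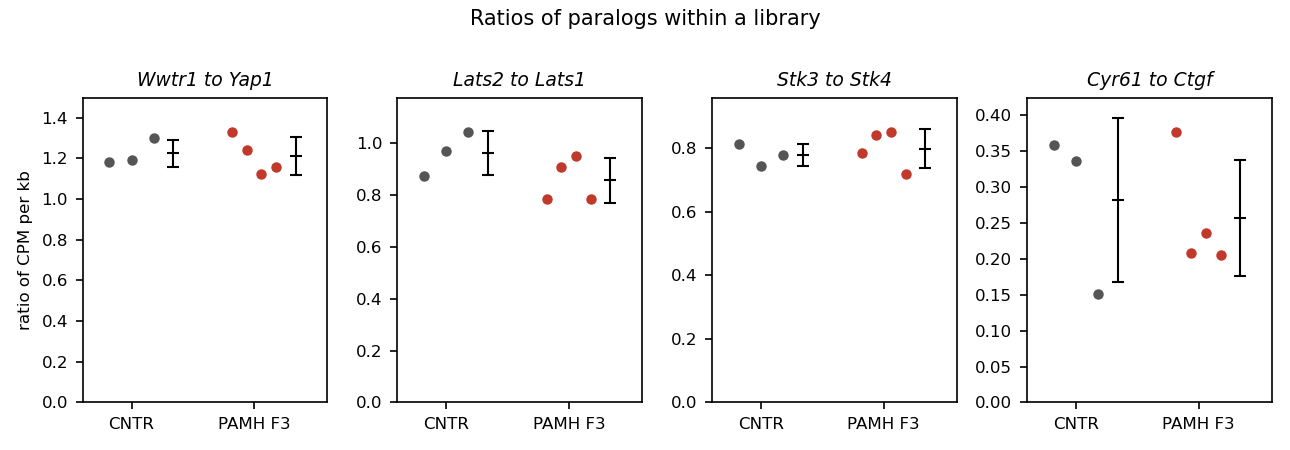
Ratio of CPM per kb of 4 pairs of paralogs in each library, with CNTR in grey (n = 3), PAMH F3 in red (n = 4) and the mean with SD in black. The groups overlap in all 4 panels, and the ratio of Cyr61 to Ctgf has the widest spread (0.15 to 0.377).

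The rest of the pathway was examined through 53 further genes. Of these, 52 passed the filter on low counts, 0 had an unadjusted p under 0.05 in the edgeR fit with surrogate variables, beside 7.63% of all genes, and 0 had groups that did not overlap. By sign alone 23 were higher and 29 lower in PAMH F3, with a median log2 fold change of -0.0036 and a median size of 0.053. The lowest p was that of Frmd6 (edgeR adjusted p = 0.654), which encodes the FERM-domain protein Willin and was named after its values were seen. Its log2 fold change was -0.39 ± 0.16 (SE). Among the close partners of the members, the LATS cofactor Mob1a had a fold of 1.00 with an interval from 0.921 to 1.10, and Mob1b one of 1.05 with an interval from 0.957 to 1.15. Nf2, which encodes the upstream regulator Merlin, had a fold of 0.999 with an interval from 0.899 to 1.11. DESeq2 with the same surrogate variables gave 1 of the 52 an unadjusted p under 0.05, namely Frmd6, beside 5.66% of all genes.

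Genes known as YAP and TAZ targets in other cells, were taken as a list of 19 without the members, of which 17 were tested and 0 called by edgeR or DESeq2 with surrogate variables. By sign 14 were lower and 3 higher in PAMH F3, with a median log2 fold change of -0.14, and of all 18779 genes 8973 were lower and 9806 higher. In the edgeR fit with surrogate variables 5 (29.4%) had an unadjusted p under 0.05, 4 of them lower and 1 higher, beside 7.63% of all genes (702 lower and 730 higher), and in the fit without them 1 (5.88%), beside 3.89%. This list was put together with earlier results of these data known, so its direction is a description and was not tested.

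Amotl2, an angiomotin that binds YAP and holds it outside the nucleus and is itself a YAP target, was the only target gene whose groups did not overlap. It measured 57.3, 75.1 and 70.3 CPM in CNTR and 54.9, 52.4, 54.5 and 48.7 CPM in PAMH F3, and PAMH F3 replicate 1 lay just below CNTR replicate 1. Groups of this kind, lower in PAMH F3, occurred in 2.4% of all genes. The fold was 0.827 with an interval from 0.735 to 0.932 (edgeR adjusted p = 0.539), and an exact permutation test on CPM gave p = 0.0286, the smallest value possible. This permutation p follows largely from the lack of overlap and is no separate support, since Amotl2 was named after its values were seen. The log2 fold change lay between -0.46 and -0.21 in all 25 alternative fits, each with an unadjusted p under 0.05. These fits reuse the same libraries and are not independent.

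The other target genes with an unadjusted p under 0.05 each depended on the fit or on 1 library. Gadd45a, a stress-response gene, measured 59.5, 110 and 69.7 CPM in CNTR and 50.3, 58.8, 75.2 and 46.7 CPM in PAMH F3 (log2 fold change -0.25 ± 0.063, edgeR adjusted p = 0.522). CNTR replicate 2 was its highest library, and without that library and without surrogate variables the change was -0.17. Igfbp3, a secreted binding protein of the IGFs, measured 37.7, 20.4 and 21.1 CPM in CNTR and 27.3, 17.8, 19.7 and 16.2 CPM in PAMH F3 (log2 fold change -0.54 ± 0.15, edgeR adjusted p = 0.539). Its difference rested on CNTR replicate 1, without which it was -0.021. Myof, which encodes the membrane protein myoferlin, had a log2 fold change of -0.23 ± 0.096 (edgeR adjusted p = 0.645), with 145 CPM in PAMH F3 replicate 3 and 184 to 220 CPM in the other libraries. Without PAMH F3 replicate 3 its change was -0.12. Crim1, a transmembrane protein that binds BMPs, was the only one higher (log2 fold change 0.18 ± 0.069, edgeR adjusted p = 0.628), and its change was 0.099 without CNTR replicate 2.

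Among the other CCN genes, relatives of Ctgf and Cyr61, Wisp2 and Wisp1 had larger fold changes than any member. Wisp2 (CCN5), a CCN protein that lacks the C-terminal domain of the family, measured 64.7, 54.6 and 64.7 CPM in CNTR and 51.8, 20.8, 20.7 and 28.9 CPM in PAMH F3. The groups did not overlap, with PAMH F3 replicates 2, 3 and 4 far below and PAMH F3 replicate 1 just below the CNTR libraries. The log2 fold change was -1.17 ± 0.29 (SE), a fold of 0.445 with an interval from 0.275 to 0.720 (edgeR adjusted p = 0.522), and the exact permutation p was 0.0571. Without PAMH F3 replicate 1 it was -1.44 and past the adjusted threshold in edgeR. Wisp1 (CCN4), known as a WNT-induced gene, measured 41.6, 23.3 and 10.8 CPM in CNTR and 19.9, 11.1, 6.89 and 9.53 CPM in PAMH F3. The groups overlapped through CNTR replicate 3. Its log2 fold change of -1.23 ± 0.37 (edgeR adjusted p = 0.550) was -0.47 without CNTR replicate 1. Nov (CCN3) was scarce, at 0.897 to 1.90 CPM, with a log2 fold change of 0.11 ± 0.26 (edgeR adjusted p = 0.951). Wisp3 (CCN6) had at most 0.14 CPM and was not tested.

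**Figure D5:**
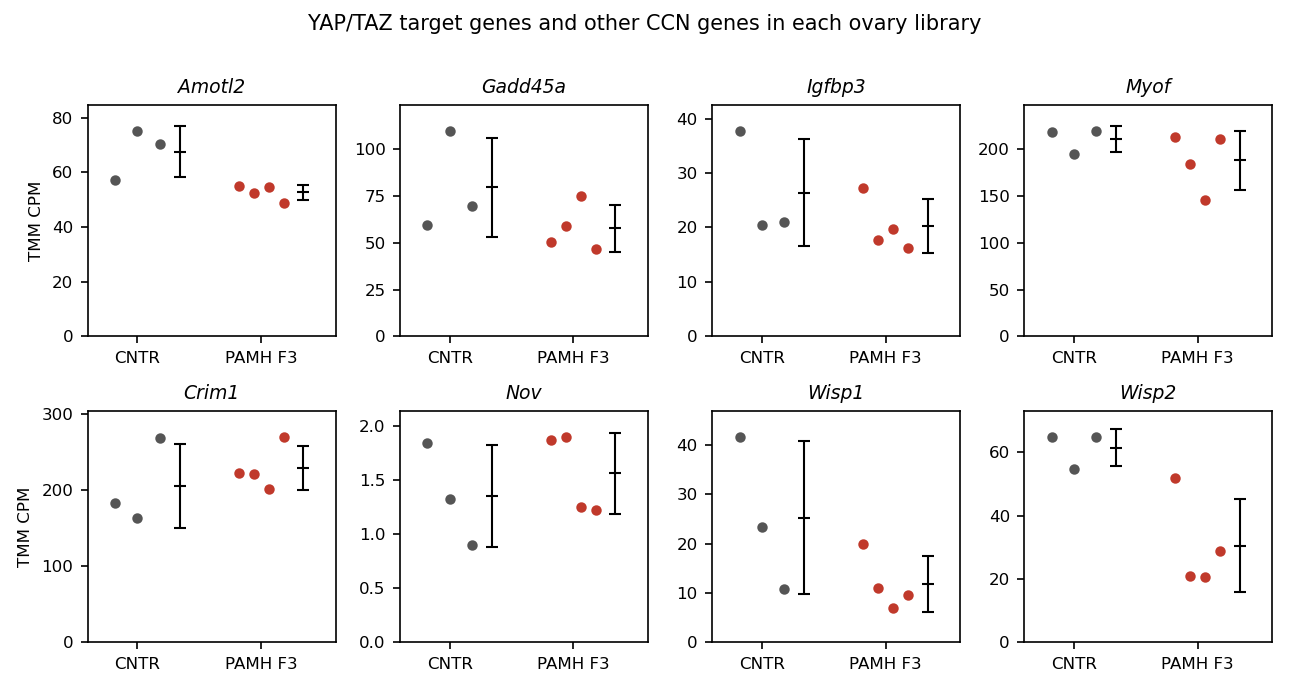
TMM CPM in each library of the 5 YAP and TAZ target genes with an unadjusted p under 0.05 and of the 3 tested CCN genes that are not members, with CNTR in grey (n = 3), PAMH F3 in red (n = 4) and the mean with SD in black. The groups do not overlap for Amotl2 and Wisp2.

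Markers of other cells also varied between the libraries. The summed CPM of 5 luteal markers (Ptgfr, Akr1c18, Prlr, Sfrp4 and Lhcgr) was 3240 to 5292 in CNTR and 1957 to 3439 in PAMH F3, where PAMH F3 replicate 1 had the highest sum. Of these markers 3 had an unadjusted p under 0.05, all lower in PAMH F3, and none was at 0. PAMH F3 replicate 1 was also the highest PAMH F3 library for Sav1, Wisp1 and Wisp2. Within CNTR the luteal sum was 3240, 3582 and 5292 CPM in replicates 1, 2 and 3. Sav1 and Wisp1 ran in the opposite order there, highest in CNTR replicate 1 and lowest in CNTR replicate 3, and Wisp2 was lowest in CNTR replicate 2. The part of luteal RNA in the values of these genes was not tested. Of 6 endothelial markers, 3 had an unadjusted p under 0.05, all lower in PAMH F3, and none was at 0. Their sums were 242 to 276 CPM in CNTR and 194 to 279 CPM in PAMH F3. PAMH F3 replicate 1 had the highest sum of all libraries and the highest Amotl2 of PAMH F3, which still lay below every CNTR library. CNTR replicate 2 had the lowest sum of CNTR and the highest Amotl2. The part of endothelial RNA in the value of Amotl2, which blood vessels also express, was not tested. In whole ovaries fewer cells of a type and less RNA per cell cannot be told apart. Ovary markers were present in all libraries, with 3441 to 6001 CPM over 8 granulosa and 296 to 479 CPM over 8 oocyte markers. Oviduct RNA was present as well, with 2673 to 6450 CPM over 5 oviduct epithelium markers, and adipocyte markers summed to 86.2 to 667 CPM. Of 6 stromal markers only Tcf21 had an unadjusted p under 0.05, lower in PAMH F3 (26.8 to 35.7 CPM beside 34.9 to 59.3 CPM in CNTR), and its part in the target genes was not tested. No oocyte, oviduct or adipocyte marker had an unadjusted p under 0.05, while among the granulosa markers 2 were higher and 2 lower with such a p.

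CNTR replicate 2 stood apart in base composition. Its counts rose by 0.31 log2 units per 10% of GC content relative to the mean of the libraries, against -0.12 to 0.049 in the others. It held the lowest value of 5 members (Stk3, Stk4, Lats1, Yap1 and Wwtr1) and the highest of Cyr61. The exons of these 6 members hold 40.9% G and C in Stk3, 46.7% in Stk4, 44.0% in Lats1, 51.4% in Yap1, 43.9% in Wwtr1 and 52.8% in Cyr61. The members without an extreme in this library hold 53.6% in Lats2, 42.0% in Sav1, 51.5% in Ctgf and 47.9% in Tead1. Lats2, with the highest G and C content of the members, measured 47.9 CPM in CNTR replicate 2, in the lower part of its range of 46.2 to 57.9 CPM. After a correction of each library for GC content and length, without surrogate variables, the log2 fold changes of the members ranged from -0.34 (Sav1) to 0.029 (Yap1). That of Sav1 then had an unadjusted p under 0.05, and those of Stk3, Stk4, Wwtr1 and Tead1 were below 0, at -0.010, -0.016, -0.033 and -0.068. Without CNTR replicate 2 the change of Lats1 was 0.033, that of Stk3 -0.033 and that of Sav1 -0.32.

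Among 12698 genes with a mean of at least 5 CPM, those whose log2 CPM followed Yap1 most closely over the 7 libraries were Ythdf1, Rfwd3, Zfp286, Osbp and Zfp661, with Pearson correlations from 0.971 to 0.994. For Ctgf they were Chst14, Asb4, Dmrta1, Ica1l and Trmt44 (0.966 to 0.979), and for Cyr61 Shc1, Irak4, Slc39a13, Sqstm1 and Dynll2 (0.966 to 0.975). With 7 points and this many genes, the highest correlations are high for any gene, and the libraries share depth, base composition and cell content, so these values are a description. Of the members, Stk4 (0.774), Stk3 (0.724) and Lats1 (0.706) came closest to Yap1 and Cyr61 was the most opposed (-0.741). Among the 12698 genes, Stk4, Stk3 and Lats1 ranked only 1055, 1473 and 1644 by their correlation with Yap1. The correlation of Ctgf with Cyr61 was 0.256, and that of Ctgf with Yap1 was 0.0058.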

How the data were processed

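The authors sequenced stranded poly(A) libraries as single reads, mapped them to mm10 with STAR 2.5.3a, and used HTSeq 0.6.1p1 in union mode to count reads with 1 alignment per Ensembl gene. Deposited values are raw counts per gene, 1 table per library, and the 5 summary lines of each table were left out. The annotation release and the strand setting of the counting are not given in the sources used here. GENCODE M21 held 55394 of the identifiers.

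Counts were tested with edgeR 4.0.16 (TMM, filterByExpr with a minimum count of 10, glmQLFit without robust fitting, glmQLFTest) in R 4.3.3 on all 7 libraries, with the group and 2 surrogate variables from svaseq (sva 3.50.0, number from num.sv, at most 3, seed 1) and 3 residual degrees of freedom. Confidence intervals use the quasi-likelihood standard error. DESeq2 1.42.0 gave an alternative test and size factors. CPM was averaged with SD over libraries, and levels per kb divide it by the union of exon bases less bases shared on the same strand. The tests were checked on simulated data. Genes were named by rule: all members, their close relatives, list genes with an unadjusted p under 0.05 or without overlap, and the 5 most correlated genes of Yap1, Ctgf and Cyr61. The members and lists were chosen with earlier results of these data known. No 2 libraries of a group agreed within sampling noise, with a mean chi-square per gene of 14.8 to 48.8.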

Additional observations from a re-analysis of the deposited data

Results flagged for a closer look

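Of 28 values examined in the 4 PAMH F3 libraries by Dixon's criterion for 1 library far from the others, 1 was past the critical value for groups of 4, and chance alone puts about 5% of groups past it. Tead3 measured 16.3 CPM in PAMH F3 replicate 3 and between 13.9 and 14.2 CPM in PAMH F3 replicates 1, 2 and 4. The gap was 0.863 of the range of the group, and the value lies within the CNTR range, which reached 22.0 CPM.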

How the results depend on the processing

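No member passed the adjusted threshold in any of the 25 alternative fits, and Sav1, Lats1 and Yap1 kept their sign in all of them. The signs of Stk3, Stk4, Lats2, Wwtr1, Tead1, Ctgf and Cyr61 turned in at least 1, so no direction can be given for these 7, and the cause was not tested. The fits reuse the same libraries, and the intervals of Lats1 and Yap1 include no change. Their kept sign therefore gives no direction either. Of all genes, edgeR called 0, DESeq2 with the same surrogate variables 101 and without them 6, and edgeR without a filter on low counts 8. Unadjusted p under 0.05 were 730 without surrogate variables in edgeR, 842 without them in DESeq2 and 888 with the GC and length correction. For members such p numbered 0 with 0 or 1 surrogate variable and in DESeq2 without them. For the 52 other pathway genes they numbered 1 with 3 surrogate variables, DESeq2, median-ratio size factors, no filter, and the GC and length correction. For the target genes they numbered 1 without surrogate variables, 3 with 1 surrogate variable, 2 in DESeq2 without them and 3 with the GC and length correction.

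Leaving out each library in turn, with or without surrogate variables, called 0 to 37 genes, the highest when CNTR replicate 1 was absent and 31 when PAMH F3 replicate 1 was. Unadjusted p under 0.05 then numbered 451 to 3256 over all genes, the highest again in the absence of CNTR replicate 1, and 795 in that of PAMH F3 replicate 2 with surrogate variables. They numbered 0 to 2 over members (Sav1 and Ctgf when CNTR replicate 3 or PAMH F3 replicate 1 was left out), 0 to 11 over the other pathway genes (11 without CNTR replicate 1) and 1 to 10 over the targets (10 without PAMH F3 replicate 1, where 1966 of all genes had such a p). Log2 fold changes ranged from -0.039 to 0.14 for Stk3, -0.036 to 0.11 for Stk4, -0.12 to 0.056 for Lats2, -0.022 to 0.11 for Wwtr1, -0.050 to 0.036 for Tead1, -0.41 to 0.43 for Ctgf, -0.30 to 0.16 for Cyr61, -0.024 to 0.10 for Mob1a, -0.053 to 0.071 for Nf2 and -0.038 to 0.52 for Nov. The log2 difference of the Wwtr1 to Yap1 ratio ranged from -0.061 to 0.030 and that of Cyr61 to Ctgf from -0.48 to 0.14.

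Other values that turned sign were as follows. The GC and length correction gave -0.010 for Stk3, -0.016 for Stk4, -0.033 for Wwtr1, -0.068 for Tead1, -0.12 for Ctgf, -0.094 for Cyr61, -0.016 for Mob1a and -0.023 for Mob1b. Without surrogate variables Ctgf was at -0.10, Cyr61 at -0.13 and Nf2 at 0.027. With 1 surrogate variable they were at -0.075, -0.11 and 0.029, and in DESeq2 without surrogate variables at -0.11, -0.13 and 0.027. With 3 surrogate variables Tead1 was at -0.0026 and Cyr61 at -0.012. Tead1 was at -0.00064 in DESeq2 with the same surrogate variables and also with median-ratio size factors, at -0.0018 without a filter and at -0.0071 with at least 10 counts in every library, where Mob1a was at -0.0012.

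The groups share replicate numbers 1 to 3, but the deviations of same-numbered libraries correlated at 0.120, 0.125 and -0.326, so the numbers do not pair them. With the replicate block 442 genes, 1 member (Sav1, at -0.26) and 1 target gene had an unadjusted p under 0.05, and 0 genes were called. Stk4 was at -0.0092, Ctgf at -0.086, Cyr61 at -0.078 and Nf2 at 0.018 with the block, and the log2 differences of the Wwtr1 to Yap1 and Cyr61 to Ctgf ratios were 0.0066 and 0.011. Counts of 692 or more per member leave the spread between libraries, not depth, as the limit of the intervals.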
